A study of Mus musculus with 16 samples.

Results

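The genes described here are 9 markers of excitatory neurons of the hippocampus and cerebral cortex: Fibcd1, Wfs1, Prox1, Neurod6, Emx1, Tbr1, Bcl11b, Fezf2 and Cux2. They were measured in libraries labelled as microglia sorted from mouse brain. They are 9 of the 21878 mRNAs in the count and FPKM tables and were found by their gene symbols. The list was chosen from results that already included the EAE and PBS values of these libraries. The differences of the 9 genes between the groups are therefore given as a description, with no p-value for any of them, and nothing is drawn from them. Where the 9 genes are counted among the calls of a fit across all mRNAs, the share of all mRNAs called is given beside the count. All 9 genes passed the filter of a total of at least 16 counts.

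All mice were wild-type female C57BL/6 mice aged 8 weeks, with 8 EAE mice, 8 PBS-treated mice and 1 library per mouse. Experimental autoimmune encephalomyelitis (EAE), an immune-driven model of multiple sclerosis, was induced with 200 µg of a myelin oligodendrocyte glycoprotein (MOG) peptide in complete Freund's adjuvant, and 200 ng of pertussis toxin was given on days 0, 2 and 7. The amount of peptide is that of the sample labels, and the methods describe another. The labels give residues 35–55 in the protocol, but in the treatment field the last residue runs from 55 in EAE 1 to 62 in EAE 8. Control mice were injected with PBS. The sources do not say whether these injections held adjuvant or toxin, whose effects therefore cannot be told apart from that of the peptide. CD11b+/CD45int cells were sorted at the peak of disease, and total RNA was sequenced after removal of ribosomal RNA. The labels name the brain as the tissue, without a region.

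The excitatory neurons of the cortex and hippocampus come from the pallium, the dorsal part of the embryonic forebrain, and their identities are set by transcription factors. Fezf2 directs deep-layer neurons that project below the cortex, partly through Bcl11b (also called Ctip2), whereas Tbr1 acts in deep-layer neurons that project to the thalamus and Cux2 in upper-layer neurons. Emx1 marks pallial progenitors and their excitatory offspring, and Neurod6 marks postmitotic excitatory neurons. Prox1 is needed for the granule cell identity of the dentate gyrus. Fibcd1, a membrane receptor, and Wfs1, a protein of the endoplasmic reticulum membrane, are not transcription factors and are used as markers of CA1 pyramidal neurons. Microglia are not known for these neuronal programmes. The genes are not specific to excitatory neurons either, since Bcl11b is also abundant in striatal projection neurons and T cells and Prox1 is found in some interneurons.

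Total counts ranged from 24587443 to 30244215 per EAE library and from 26031889 to 34184576 per PBS library. FPKM scales a count for gene length and for the total counts of the library, so that levels of different genes can be compared. The sort label was compared with marker lists. The mean FPKM of 17 microglia markers was 13.25–21.2 in EAE libraries and 12.3–19.9 in PBS libraries. The mean FPKM of 10 pan-neuronal genes was 92.3–108.5 and 102.4–114.0, respectively, above that of the microglia markers in every library. The mean FPKM of 10 astrocyte genes was 133.0–195.5 in EAE and 154.6–181.0 in PBS libraries, and that of 9 oligodendrocyte genes 102.1–143.5 and 112.0–137.4. Both lists were thus also above the microglia markers in every library. The values below are those of whole libraries and are not assigned to microglia. The part of neuronal and other non-microglial RNA in them was not tested. In bulk libraries, fewer cells of a type and less RNA per cell cannot be told apart. The likeness of 2 libraries was measured as their median squared difference relative to counting noise, and it was 3.14–3.56 among EAE 6, EAE 7 and EAE 8 and 3.30–3.94 among PBS 5, PBS 7 and PBS 8. The measure was 5.75–21.8 for the other EAE pairs and 6.86–20.9 for the other PBS pairs. Neither the labels nor the methods name a batch. Likeness was computed only for pairs within a group, so these EAE and PBS libraries are not known to be alike to each other. A difference particular to either of them cannot be told apart from that of the condition. The values within these 6 libraries, called the 6 libraries most alike, and within the other 10 are given beside those of all 16.

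The start-site windows of 4 genes are shown because Fibcd1, Wfs1 and Bcl11b had lower means in EAE libraries and varied together in PBS libraries, while Tbr1, which shares the deep layers with Bcl11b, did not differ in this way. Each window holds 250 bases before and 50 bases after a RefSeq transcription start on GRCm38.p6 and is written 5′ to 3′ on the strand of the gene. Capitals mark matches to 3 motifs searched on both strands, with no overlap between matches: CAGATG, an E-box form bound by NeuroD factors, TAATTA, a homeodomain core, and AGGTGT, a core of the T-box site. Fibcd1 lies on the minus strand (chr2:31845956-31846255), Wfs1 on the minus strand (chr5:36988933-36989232), Bcl11b on the minus strand (chr12:108003365-108003664) and Tbr1 on the plus strand (chr2:61804203-61804502).
Fibcd1: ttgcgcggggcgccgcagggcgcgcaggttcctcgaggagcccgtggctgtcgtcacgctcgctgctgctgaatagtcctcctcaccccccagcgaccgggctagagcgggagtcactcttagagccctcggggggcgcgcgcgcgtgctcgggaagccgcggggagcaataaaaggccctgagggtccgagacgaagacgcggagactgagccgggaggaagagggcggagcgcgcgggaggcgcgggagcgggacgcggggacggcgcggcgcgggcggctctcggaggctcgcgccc
Wfs1: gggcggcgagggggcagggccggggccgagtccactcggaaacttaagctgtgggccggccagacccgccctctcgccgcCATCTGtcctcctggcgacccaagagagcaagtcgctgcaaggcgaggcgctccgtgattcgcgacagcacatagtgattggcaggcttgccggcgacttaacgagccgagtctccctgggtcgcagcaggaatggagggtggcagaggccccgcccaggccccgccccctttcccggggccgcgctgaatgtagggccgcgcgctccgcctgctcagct
Bcl11b: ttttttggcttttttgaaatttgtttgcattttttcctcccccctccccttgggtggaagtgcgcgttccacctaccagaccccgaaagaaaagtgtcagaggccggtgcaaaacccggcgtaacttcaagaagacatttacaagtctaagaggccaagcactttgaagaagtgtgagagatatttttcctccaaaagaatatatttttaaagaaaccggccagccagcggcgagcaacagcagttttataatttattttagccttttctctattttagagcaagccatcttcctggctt
Tbr1: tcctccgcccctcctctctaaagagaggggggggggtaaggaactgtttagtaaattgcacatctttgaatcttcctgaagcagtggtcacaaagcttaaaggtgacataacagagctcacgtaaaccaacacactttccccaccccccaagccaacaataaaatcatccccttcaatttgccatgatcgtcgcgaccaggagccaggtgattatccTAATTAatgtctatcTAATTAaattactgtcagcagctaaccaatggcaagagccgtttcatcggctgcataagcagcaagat
The Fibcd1 window had a GC content of 74.3%, higher than 95.6% of all 32851 windows of 300 bases, and the Bcl11b window had 43.0%, higher than 16.5% of them. The GC content was 70.0% in the Wfs1 window and 46.0% in the Tbr1 window, against a median of 52.7% over all windows. Of the 3 genes that varied together, Fibcd1 and Wfs1 thus had GC-rich windows, that of Wfs1 being higher than 90.4% of all windows, and Bcl11b did not. The E-box was found in 3 of the 11 windows of the 9 genes (Wfs1, 1 of 2 of Prox1 and 1 of 2 of Cux2), against 17.2% of all windows. TAATTA was found in the Tbr1 window only, at 2 places, against 5.29% of all windows. The T-box core was found in the Neurod6 window only, against 13.7%. A match is a description of the letters and not a binding site.

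On GRCm38.p6, Fibcd1 spans chr2:31813290-31846964, Wfs1 chr5:36966104-36988982, Prox1 chr1:190118035-190170827, Neurod6 chr6:55677818-55681263, Emx1 chr6:85187931-85204463, Tbr1 chr2:61802863-61814114, Bcl11b chr12:107910403-108004145, Fezf2 chr14:12338992-12346803 and Cux2 chr5:121857962-122050415. Prox1 and Cux2 are each overlapped by 2 antisense genes. The libraries were made with a stranded kit, but the strand setting of the counting is not given in the sources used here, so reads of these antisense genes may be included in the values of Prox1 and Cux2.

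The CA1 marker Fibcd1 had FPKM values of 4.23, 4.61 and 4.78 (lowest, median and highest) in the 8 EAE libraries and 4.86, 6.42 and 7.01 in the 8 PBS libraries. Every EAE library was below every PBS library, and the nearest were EAE 2 at 4.78 and PBS 4 at 4.86. The mean was 4.54 ± 0.203 (SD, n = 8) in EAE and 6.21 ± 0.850 in PBS libraries, and the log2FC was −0.50 (SE 0.08), a level 29.4% lower in EAE. The EAE libraries were also more even than the PBS libraries. Their coefficient of variation was 4.47%, with 3.92% from counting alone, whereas that of the PBS libraries was 13.7%, with 3.14% from counting. The log2FC was −0.60 (SE 0.06) within the 6 libraries most alike and −0.44 (SE 0.10) within the other 10. It stayed between −0.54 and −0.47 when any 1 library was left out.

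The other CA1 marker, Wfs1, encodes wolframin and was the most abundant of the 9 genes. Its FPKM values were 33.4, 42.1 and 45.3 in EAE libraries and 42.1, 45.01 and 49.1 in PBS libraries. EAE 3, EAE 4, EAE 5 and EAE 1 lay below all PBS libraries, and the other 4 EAE libraries overlapped the PBS range. The means were 40.8 ± 4.41 (SD, n = 8) and 45.7 ± 2.24, with a log2FC of −0.22 (SE 0.06). The log2FC was −0.09 (SE 0.04) within the 6 libraries and −0.30 (SE 0.07) within the other 10. Both CA1 markers thus had lower means in EAE libraries in each set.

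Prox1, the transcription factor of dentate granule cells, had FPKM values of 5.70, 6.14 and 6.51 in EAE libraries and 4.68, 5.42 and 5.82 in PBS libraries. In 6 EAE libraries it was above every PBS library, and all 8 were above the PBS median. The means were 6.12 ± 0.2885 (SD, n = 8) and 5.37 ± 0.383, with a log2FC of 0.14 (SE 0.05). Within the 6 libraries most alike the log2FC was 0.23 (SE 0.06), and within the other 10 it was 0.08 (SE 0.07). The ratio of Fibcd1 to Prox1 FPKM, which does not depend on library scaling, was 0.684, 0.747 and 0.817 (lowest, median and highest) in EAE libraries and 0.835, 1.20 and 1.46 in PBS libraries, without overlap. Since Fibcd1 alone was without overlap and Prox1 was higher in EAE libraries, nothing further is read from this ratio. The ratio of Fibcd1 to Mpped1, another CA1 gene, was below every PBS library in 7 of 8 EAE libraries, with medians of 0.268 and 0.392. The ratio of the 2 CA1 markers, Fibcd1 to Wfs1, was below the PBS median in all 8 EAE libraries, with medians of 0.109 and 0.136. Since Fibcd1 alone was below every PBS library in all 8 EAE libraries, nothing further is read from these ratios either.

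**Figure D1:**
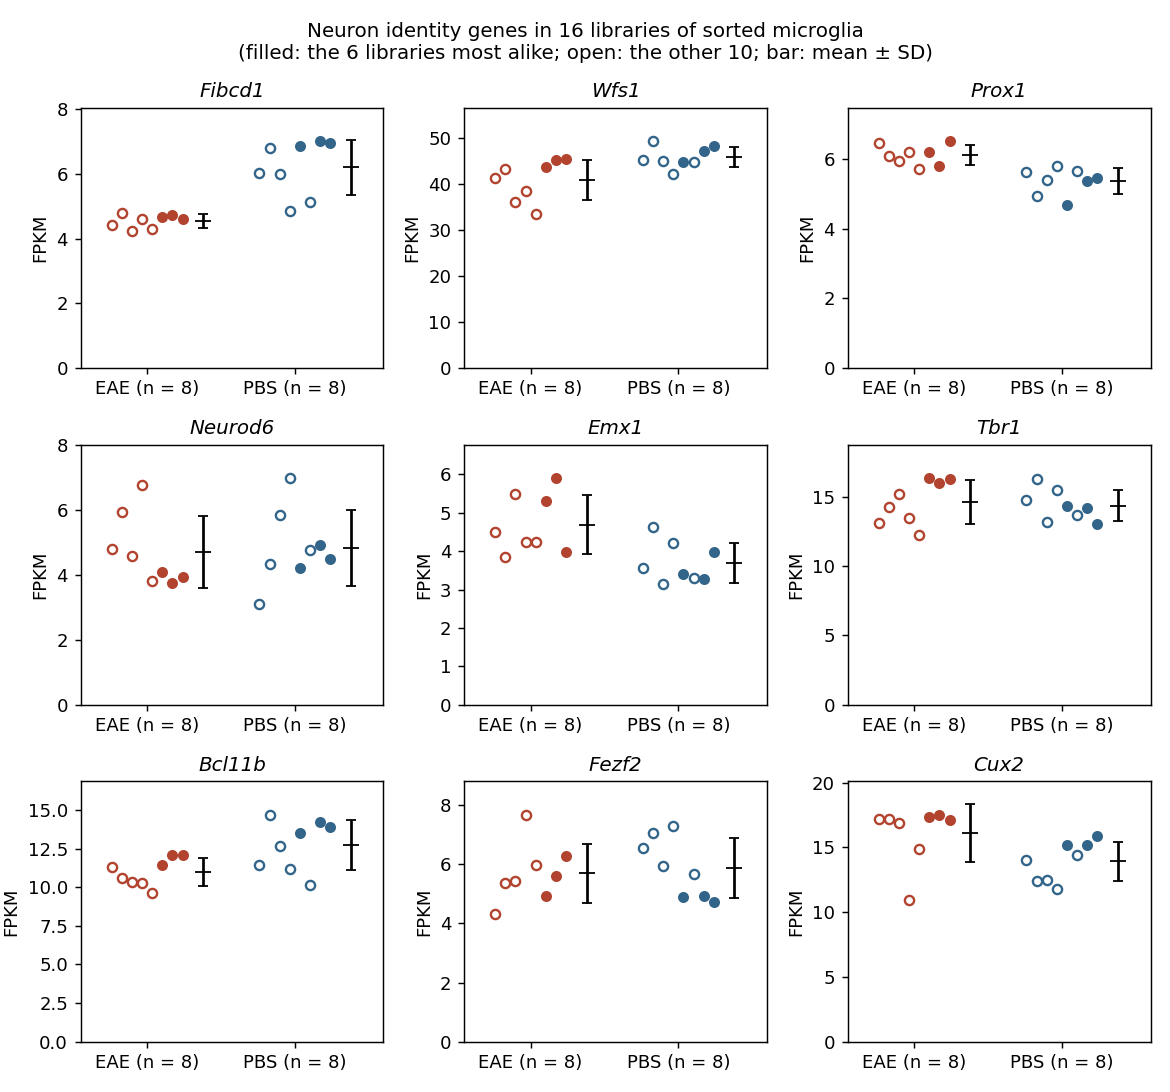
FPKM of each of the 9 genes (vertical axis, starting at 0) in the 8 EAE and 8 PBS libraries, with 1 point per library and the mean ± SD beside each group. Filled points are the 6 libraries most alike and open points the other 10. Fibcd1 is the only gene with no overlap between the groups (4.23–4.78 against 4.86–7.01), and EAE 4 lies apart for Cux2 at 10.9.

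The pallial markers were Neurod6, a bHLH factor of postmitotic excitatory neurons, and Emx1, a homeodomain factor of the dorsal forebrain. Neurod6 had FPKM values of 3.73, 4.32 and 6.76 in EAE libraries and 3.085, 4.62 and 6.96 in PBS libraries. The groups overlapped almost wholly, with means of 4.70 ± 1.10 (SD, n = 8) and 4.82 ± 1.16 and a log2FC of −0.09 (SE 0.15). It was the most variable of the 9 genes, with coefficients of variation of 23.4% and 24.05%, and EAE 4 and PBS 4 held the highest value of their groups. Emx1 had FPKM values of 3.85, 4.37 and 5.89 in EAE libraries and 3.13, 3.49 and 4.62 in PBS libraries. All 8 EAE libraries were above the PBS median, and 3 of them were above every PBS library. The means were 4.69 ± 0.768 (SD, n = 8) and 3.69 ± 0.528, with a log2FC of 0.29 (SE 0.12). Emx1 rested on the fewest reads, 100 to 190 counts per library, and counting alone gives a coefficient of variation of 8.28% in EAE libraries and 8.75% in PBS libraries.

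Of the deep-layer factors, Bcl11b, a zinc finger protein of neurons that project below the cortex, had FPKM values of 9.655, 10.95 and 12.1 in EAE libraries and 10.2, 13.1 and 14.7 in PBS libraries. All 8 EAE libraries were below the PBS median, and 5 PBS libraries were above every EAE library. The means were 10.97 ± 0.893 (SD, n = 8) and 12.7 ± 1.63, with a log2FC of −0.26 (SE 0.07), and the difference was −0.25 (SE 0.04) within the 6 libraries most alike and −0.28 (SE 0.09) within the other 10. Fezf2, which acts upstream of Bcl11b in development, had FPKM values of 4.33, 5.52 and 7.65 in EAE libraries and 4.73, 5.81 and 7.31 in PBS libraries. The groups overlapped, with a log2FC of −0.10 (SE 0.12), and the sign differed between the sets, with 0.18 (SE 0.10) in the 6 libraries and −0.25 (SE 0.14) in the other 10.

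Tbr1, the T-box factor of corticothalamic neurons, had FPKM values of 12.2, 14.75 and 16.3 in EAE libraries and 13.1, 14.25 and 16.3 in PBS libraries. Its means were 14.6 ± 1.57 (SD, n = 8) and 14.4 ± 1.12, and its log2FC was −0.03 (SE 0.07) after TMM scaling and 0.02 with library totals. This near-zero difference covered opposite differences in the sets. In the 6 libraries most alike, Tbr1 was 16.33, 16.03 and 16.26 in EAE 6, EAE 7 and EAE 8 and 14.3, 14.2 and 13.1 in PBS 5, PBS 7 and PBS 8, a log2FC of 0.20 (SE 0.04). In the other 10 libraries the log2FC was −0.17 (SE 0.08), and the difference between the sets was not tested. The ratio of Bcl11b to Tbr1, both deep-layer genes, was below the PBS median in all 8 EAE libraries, with medians of 0.7485 and 0.922. Bcl11b alone was also below its PBS median in all 8, so nothing further is read from this ratio.

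Cux2, the upper-layer factor, had FPKM values of 10.9, 17.1 and 17.5 in EAE libraries and 11.8, 14.2 and 15.9 in PBS libraries. In 6 EAE libraries it was above every PBS library, but EAE 4 was below all of them. The means were 16.1 ± 2.26 (SD, n = 8) and 13.9 ± 1.53, with a log2FC of 0.16 (SE 0.08), and without EAE 4 the log2FC was 0.23. The ratio of Cux2 to Bcl11b, which is not specific to deep layers, was above every PBS library in the same number of EAE libraries, 6 of 8, with medians of 1.52 and 1.10.

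By mean FPKM over the 16 libraries, the order was Wfs1 (43.25), Cux2 (15.0), Tbr1 (14.5), Bcl11b (11.85), Fezf2 (5.79), Prox1 (5.74), Fibcd1 (5.38), Neurod6 (4.76) and Emx1 (4.19). Wfs1 was above Cux2, and Bcl11b above Fezf2, in 16 of 16 libraries, and Tbr1 was above Bcl11b in 14. The other neighbours in this order were not separated beyond their spread, since Cux2 was above Tbr1 in 11 libraries, Fezf2 above Prox1 in 8, Fibcd1 above Neurod6 in 11 and Neurod6 above Emx1 in 9. Prox1 was above Fibcd1 in all 8 EAE libraries and in 2 of 8 PBS libraries.

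Of the 9 genes, 6 had a negative and 3 a positive log2FC, with a median of −0.09, beside 0.01 over all 17885 mRNAs tested, of which 8465 were lower and 9416 higher. Under the study's thresholds, an adjusted p under 0.05 and a |log2FC| over 1, 0.117% of all tested mRNAs were called (Benjamini-Hochberg adjusted edgeR quasi-likelihood test), and 0 of the 9 genes. DESeq2, the edgeR exact test and limma gave 0 of the 9 at these thresholds as well, since no |log2FC| of the 9 reached 1. Without the fold threshold, 1.76% of all tested mRNAs were lower and 0.66% were higher in EAE, and of the 9 genes Fibcd1 was lower and 0 were higher. This balance turned with the scaling, since 0.576% were lower and 1.26% higher with library totals, and 0.408% and 0.738% in limma on log2(FPKM + 0.1). All EAE libraries were below all PBS libraries in FPKM for 0.101% of mRNAs, among them Fibcd1, and above them for 0.162%, among them 0 of the 9. Because the list was chosen with this contrast known, nothing is read from these counts. The number of the 9 genes under an adjusted p of 0.05 was 3 with DESeq2 and with the edgeR exact test, where Wfs1 and Bcl11b were added and 5.09% and 4.17% of all mRNAs were called, against 2.42% in the edgeR quasi-likelihood test.

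**Figure D2:**
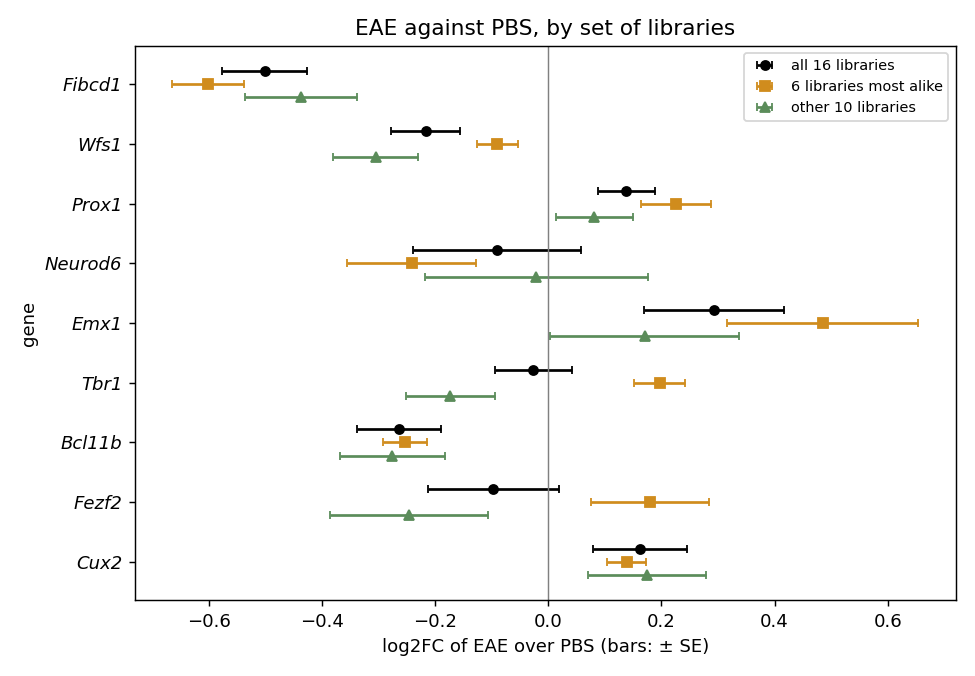
log2FC of EAE over PBS (horizontal axis, with SE) of the 9 genes in all 16 libraries, in the 6 libraries most alike (3 per group) and in the other 10 (5 per group). Fibcd1, Wfs1, Bcl11b and Neurod6 were lower in each set, and Cux2, Prox1 and Emx1 were higher in each. Tbr1 and Fezf2 had opposite signs in the sets.

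The number of the 9 genes past the threshold differed between the sets of libraries. It was 6 within the 6 libraries most alike, with Prox1, Emx1, Tbr1 and Cux2 higher and Fibcd1 and Bcl11b lower, where 4152 mRNAs, 23.2% of all, had an adjusted p under 0.05. These libraries were picked for their small differences within a group, which lowers the spread used by the test, so that nothing is read from this count. It was 0 within the other 10 libraries, where 16 mRNAs (0.0895%) did. Scaled to the 10 pan-neuronal genes instead of to all mRNAs, which moved the median log2FC of all mRNAs to 0.14, 4 of the 9 genes were called, with Prox1, Emx1 and Cux2 higher and Fibcd1 lower, where 10.1% of all mRNAs were called higher and 0.313% lower. With this scaling Neurod6, Tbr1 and Fezf2 changed sign. Fibcd1, Wfs1 and Bcl11b remained lower and Prox1, Emx1 and Cux2 remained higher in all 30 alternative settings.

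Genes that share a region with the 9 were looked at next, from 7 lists of markers of CA1, CA2, CA3, dentate gyrus, upper layers, deep layers and the pallial excitatory programme. These lists and those below were chosen with earlier results of these data known. Their adjusted p-values and calls are therefore given as a description. Of their 53 genes, 1 rose and 1 fell in EAE at an adjusted p under 0.05, with a median log2FC of −0.07. At an unadjusted p under 0.05, 12 were lower and 2 higher. The share of all mRNAs under this unadjusted threshold is not given, so nothing is read from such counts here or below. With library totals, the median log2FC of all mRNAs moved from 0.01 to 0.06, which is similar in size to several of the list medians. The gene that fell was Cpne4 of CA3, whose FPKM was 9.36 ± 1.06 (SD, n = 8) in EAE and 12.8 ± 2.84 in PBS libraries, with a log2FC of −0.50 (SE 0.11, edgeR adjusted p = 0.02545). The gene that rose was Map3k15 of CA2, with 1.99 ± 0.182 and 1.503 ± 0.196 FPKM and a log2FC of 0.36 (SE 0.10, edgeR adjusted p = 0.0486). Its adjusted p was 0.113 without PBS 2, and that of Cpne4 was 0.0575 without PBS 5. The edgeR p-values are quasi-likelihood values with Benjamini-Hochberg adjustment over all tested mRNAs. None of the 4 other CA1 genes passed the test: the median log2FC was −0.06, and Mpped1 had 17.0 ± 1.03 FPKM in EAE and 16.5 ± 0.700 in PBS libraries, and Gpr161 5.12 ± 0.334 and 5.44 ± 0.371. At an unadjusted p under 0.05, 1 of these 4 was lower.

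The 8 other dentate genes had a median log2FC of 0.00, with 0 called and 0 under an unadjusted p of 0.05. The most abundant were Pdzd2, with 13.2 ± 1.48 FPKM in EAE and 12.7 ± 0.462 in PBS libraries, and Stxbp6, with 8.90 ± 0.835 and 9.70 ± 1.595. The 9 other upper-layer genes had a median of −0.09, with 0 called and 3 lower at an unadjusted p under 0.05. Rasgrf2 had 30.1 ± 1.72 and 28.3 ± 1.62 FPKM, and Lamp5 27.3 ± 3.73 and 31.0 ± 2.97. The 13 other deep-layer genes had a median of −0.05, with 0 called and 4 lower at an unadjusted p under 0.05, and Crym had 26.9 ± 2.64 and 27.5 ± 3.26 FPKM and Crim1 21.9 ± 1.26 and 23.3 ± 1.10. The pallial programme had a median of −0.09 over 10 genes, with 0 called and 3 lower at an unadjusted p under 0.05. Its most abundant genes were Camk2a, a kinase of excitatory synapses, with 576.8 ± 60.0 and 600.3 ± 38.5 FPKM, and Slc17a7, the vesicular glutamate transporter, with 265.1 ± 21.0 and 285.6 ± 21.2.

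Neurons of other types were compared as well. Of 8 genes of GABAergic interneurons, which use the inhibitory transmitter GABA, 3 fell and 0 rose, with a median log2FC of −0.35. Gad1, which makes GABA, had a log2FC of −0.53 (SE 0.08, edgeR adjusted p = 0.00309), with 39.8 ± 2.83 FPKM in EAE and 55.6 ± 9.34 in PBS libraries (SD, n = 8). Slc32a1, the vesicular GABA transporter, had a log2FC of −0.47 (SE 0.07, edgeR adjusted p = 0.00233), and Npy, a neuropeptide, had one of −0.47 (SE 0.12, edgeR adjusted p = 0.04395). Of 10 genes of striatal projection neurons, 3 fell and 0 rose, with a median of −0.25. Among them were Adora2a, an adenosine receptor (log2FC −0.50, SE 0.09, edgeR adjusted p = 0.00839) and Ppp1r1b, the phosphoprotein DARPP-32 (−0.31, SE 0.06, edgeR adjusted p = 0.0113). Gad1, Slc32a1, Adora2a and Ppp1r1b kept an edgeR adjusted p under 0.05 whichever of the 16 libraries was left out. Within the 10 libraries outside the 6 most alike, their edgeR adjusted p was 0.116, 0.086, 0.123 and 0.0875, respectively. Bcl11b, which striatal projection neurons also express, had a log2FC of −0.26, and the part of these neurons in it was not tested. The adjusted p of Npy reached 0.0989 without PBS 2 in the edgeR test.

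Of 10 pan-neuronal genes, Syt1, the calcium sensor of synaptic vesicles, fell, with 191.0 ± 22.7 FPKM in EAE and 223.5 ± 14.4 in PBS libraries (log2FC −0.28, SE 0.07, edgeR adjusted p = 0.0326, and 0.0774 without PBS 2). The median of the list was −0.10, close to the −0.09 of the 9 genes. Cerebellar genes had a median of −0.01 over 10 genes, with Itpr1 at 114.6 ± 5.70 and 120.2 ± 6.98 FPKM. Thalamic genes had a median of −0.01 over 7 genes, with Prkcd at 12.8 ± 0.950 and 12.3 ± 1.16 FPKM and Slc17a6 at 10.56 ± 2.01 and 12.25 ± 1.36. Of these lists 0 genes were called, and 3 cerebellar genes and 1 thalamic gene were lower at an unadjusted p under 0.05.

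**Figure D3:**
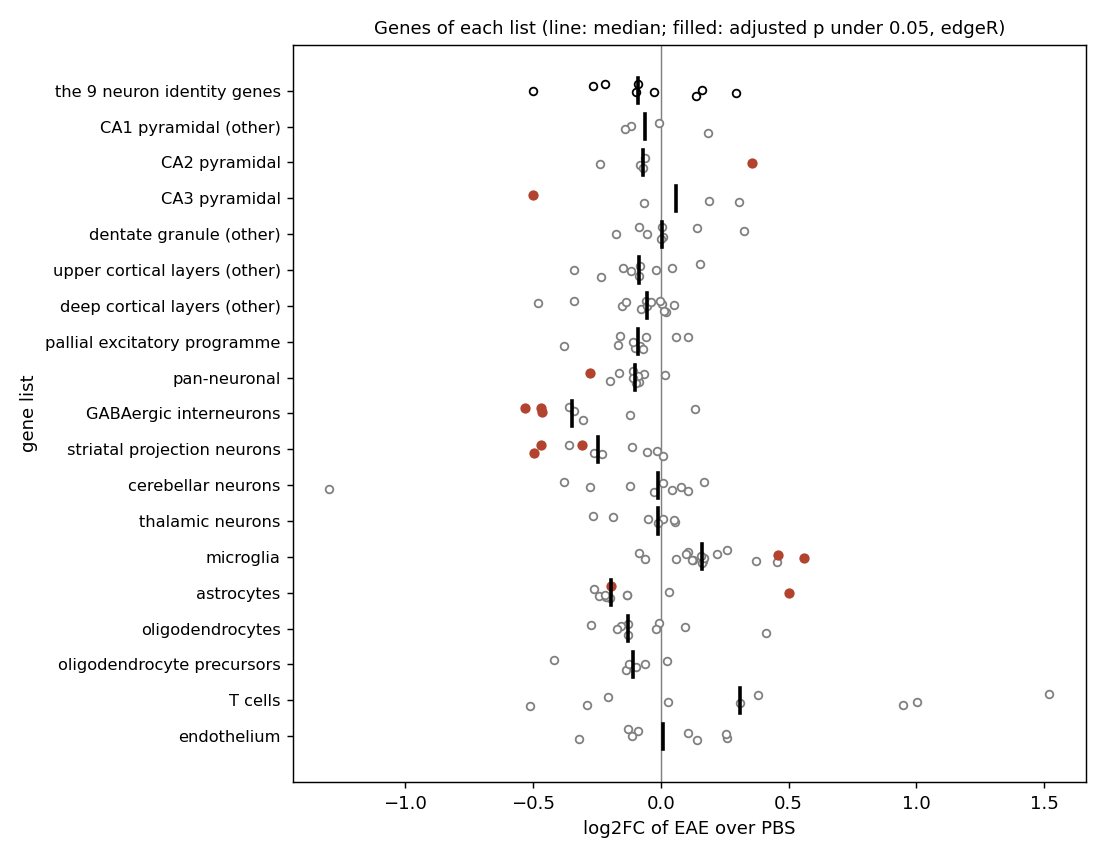
log2FC of EAE over PBS (horizontal axis) of each gene of the 9 and of the 18 lists (vertical axis), with 1 point per gene, a line at the median of each list and filled points for list genes that passed the edgeR test. The 9 genes are all drawn open, since their values are a description. Medians were −0.35 for GABAergic interneurons, −0.25 for striatal neurons and 0.16 for microglia, and the lists of cortex and hippocampus lay between −0.09 and 0.06.

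Of the lists of non-neuronal cells, those of microglia and astrocytes held genes that passed the test. Of 17 microglia markers, 15 had a positive log2FC, with a median of 0.16, and Itgam, which encodes CD11b, one of the antigens of the sort, and Trem2, a lipid receptor, rose. Itgam had a log2FC of 0.46 (SE 0.07, edgeR adjusted p = 0.001795) and Trem2 one of 0.56 (SE 0.13, edgeR adjusted p = 0.0282, and 0.0632 without EAE 2). Of 10 astrocyte genes, 8 had a negative log2FC, with a median of −0.20, and 6 were lower and 1 higher at an unadjusted p under 0.05. Of these, Gfap, a filament protein of reactive astrocytes, rose by a log2FC of 0.50 (SE 0.12, edgeR adjusted p = 0.0312, 0.0713 without PBS 2, and a log2FC of −0.05 within the 6 libraries most alike), and Atp1b2, a sodium pump subunit, had a log2FC of −0.19 (SE 0.05, edgeR adjusted p = 0.0439, and 0.102 without PBS 2). In the remaining lists 0 genes were called. Oligodendrocyte genes had a median of −0.13 over 9 genes, with Mbp at 538.4 ± 84.6 FPKM in EAE and 567.7 ± 41.3 in PBS libraries, and 1 was higher and 2 were lower at an unadjusted p under 0.05. Oligodendrocyte precursor genes had a median of −0.11 over 6 genes, with Olig1 at 26.6 ± 7.34 and 34.3 ± 6.33 FPKM and Pdgfra at 13.5 ± 1.93 and 14.4 ± 1.84, and 1 was lower at an unadjusted p. Endothelial genes had a median of 0.01 over 8 genes, with Cldn5 at 17.25 ± 4.37 and 15.1 ± 5.82 and Ly6c1 at 8.13 ± 2.97 and 9.79 ± 1.18, and 0 had an unadjusted p under 0.05.

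T cells also express Bcl11b. The 9 T cell markers had a mean FPKM of 0.260–0.452 in EAE libraries and 0.267–0.366 in PBS libraries, with 0 called and 2 higher at an unadjusted p under 0.05. Cd4 had 1.345 ± 0.432 and 1.27 ± 0.324 FPKM and Lck 0.991 ± 0.202 and 0.738 ± 0.226. The part of T cells in the Bcl11b values was not tested. Over the 11 lists in which edgeR's quasi-likelihood test called 0 genes, 92 genes in all, DESeq2 called 3 lower (Mdga1 and Nxph4 among them), the edgeR exact test 2 (Mdga1 and Nxph4) and limma-voom 0, and 0 were called higher.

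The way the 9 genes varied from library to library within the groups was then compared, a measure that does not use the difference between the groups. For each pair, Pearson's r of the deviations of log2 CPM from the group mean was computed over the 16 libraries, which share their depth and cell makeup between genes. Over the 36 pairs r ranged from −0.82 to 0.82, with a median of 0.06. Of the pairs, 5 had an r over 0.5 and 3 an r under −0.5, and 15 were negative. The 9 genes were thus not a block that rose and fell as 1 unit.

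The most alike pair was Fibcd1 and Bcl11b. Their r was 0.91 within the 8 PBS libraries (Spearman's rho 0.81) and 0.86 without the 2 libraries farthest from the median of Fibcd1, PBS 4 and PBS 6. It was 0.56 within the 8 EAE libraries (rho 0.60) and −0.01 without EAE 3 and EAE 5, so that in EAE mice it rested on these libraries. Wfs1 and Bcl11b had an r of 0.91 in EAE libraries and 0.75 in PBS libraries, with 0.84 and 0.57 when the 2 farthest libraries were left out. Fibcd1 and Wfs1 had an r of 0.81 and 0.80, which fell to 0.42 and 0.61. The r of each of these pairs was thus positive over the 8 libraries of either group. In EAE libraries, those of Fibcd1 fell to 0.42 with Wfs1 and −0.01 with Bcl11b without EAE 3 and EAE 5. Fibcd1 varied little there beyond counting, with a coefficient of variation of 4.47% against 3.92% from counting alone. These are also the 3 genes with the most negative log2FC, in a list chosen with this contrast known, so nothing is read from this.

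The most opposed pair was Cux2 and Fezf2, the upper-layer and the deep-layer factor. Their r was −0.90 within the PBS libraries (Spearman's rho −0.95) and −0.76 without PBS 2 and PBS 4. Within the EAE libraries it was −0.78 (rho −0.60) and −0.12 without EAE 4 and EAE 5. In PBS libraries, Fezf2 was 7.31 FPKM in PBS 4, where Cux2 was lowest at 11.8, and 4.73 FPKM in PBS 8, where Cux2 was highest at 15.9. Fibcd1 and Prox1 had an r of −0.69 in PBS libraries and 0.21 in EAE libraries. It was −0.46 without PBS 4 and PBS 6 and −0.74 without EAE 3 and EAE 5, so the sign in EAE libraries rested on these 2. Cux2 and Neurod6 had an r of −0.50 in PBS and −0.61 in EAE libraries, with −0.29 and −0.31 when the 2 farthest libraries were left out. Tbr1 and Emx1 had an r of 0.69 in PBS libraries and 0.47 in EAE libraries, with 0.93 and 0.48 when the 2 farthest libraries were left out.

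**Figure D4:**
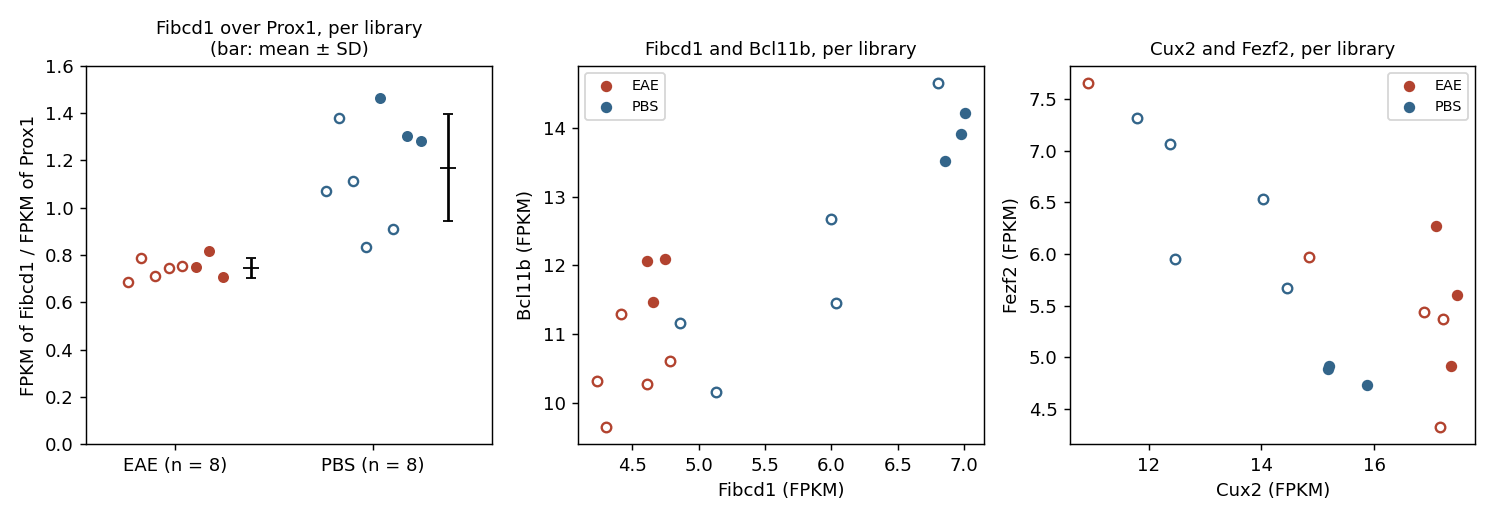
Left, the ratio of Fibcd1 to Prox1 FPKM in each library, with the mean ± SD, which lay at 0.684–0.817 in EAE and 0.835–1.46 in PBS libraries. Middle and right, FPKM of Fibcd1 against Bcl11b and of Cux2 against Fezf2, with 1 point per library (axes not starting at 0) and filled points for the 6 libraries most alike. Fibcd1 and Bcl11b were high in the same PBS libraries, and in PBS libraries Fezf2 was low where Cux2 was high.

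The same deviations were compared with those of 4 lists. Neurod6 had the highest r with the microglia list (0.76), whereas that of Wfs1 was −0.55. With the oligodendrocyte list, Bcl11b had an r of −0.66, Wfs1 one of −0.62, Cux2 one of −0.58 and Fibcd1 one of −0.54. With the astrocyte list, Tbr1 had an r of −0.63, Cux2 and Wfs1 one of −0.56 each, and the highest was 0.29 for Fezf2. With the pan-neuronal list, r ranged from −0.07 for Fezf2 to 0.36 for Neurod6.

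Among 12852 other mRNAs with a mean count of at least 100, those whose deviations were most like the mean profile of the 9 genes over the 16 libraries were Ptk2b (r = 0.88), Ticam1 (0.88), Scn4b (0.87), Mapk8ip2, Tom1l2, Panx2, Spock2, Mfsd4a and Disp2 (0.85–0.86). For single genes, the closest were Adcyap1r1 (0.93) and Cltc (0.91) for Fibcd1, Ptk2b and Mapk8ip2 (both 0.91) for Wfs1, and Pkm (0.93) and Ncdn (0.92) for Bcl11b. Cux2 was followed most closely of all, by Kmt2b (0.99) and Setd1a (0.98), which encode histone methyltransferases. For Fezf2 they were Vangl1 (0.94) and Prelp (0.92), for Neurod6 Sel1l (0.93) and Slc25a17 (0.92), for Tbr1 C1ql2 (0.88), itself on the dentate list, and Actr3b (0.86), for Emx1 Inafm1 (0.86) and Ftsj1 (0.77), and for Prox1 Zkscan6 (0.84) and Pgm3 (0.83). These are the highest values of a search over many genes and are given as a description.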

How the data were processed

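RNA labelled as from sorted microglia of 8 EAE and 8 PBS-treated mice was analysed, with groups taken from the sample labels. The authors filtered reads and mapped them to GRCm38 using HISAT2 (version 2.1.0) and counted them with HTSeq (version 0.11.2), and DESeq2 (version 1.22.2) is also named in the submitters' processing notes. They deposited raw counts per mRNA without normalization. They also deposited FPKM values, which equal the counts divided by the total counts of the library and the gene length. The strand setting is not given in the sources used here. Columns of per-sample values not used numbered 0.

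Counts of 17885 mRNAs (total over libraries of 16 or more) were tested with edgeR's quasi-likelihood test (edgeR 4.0.16, R 4.3.3) after TMM normalization, with Benjamini-Hochberg adjustment over all of them. SEs were computed as |log2FC| divided by the square root of F. Overlaps, ratios and levels were taken from FPKM, and correlations from log2 CPM deviations from group means. The scripts were tested on simulated counts. DESeq2 (version 1.42.0), limma (version 3.58.1), other scalings and filters, FPKM pseudocounts of 0.1 and 1, a replicate block and leaving out each library were the alternatives. Sequences came from RefSeq (GRCm38.p6), and overlapping genes from GENCODE. RefSeq start-site windows were matched for all 9 genes.

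The 9 genes, the marker lists and the sets of libraries were chosen with earlier results of these data known. Besides the 9, the text names every list gene with an adjusted p under 0.05, up to 4 per list, and otherwise the 2 with the highest mean FPKM, and the 10 mRNAs most like the mean profile of the 9 and the 2 most like each of them. A few genes that this rule names are not reported here. The p-values measure the spread between libraries of single mice.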

Additional observations from a re-analysis of the deposited data

Results flagged for a closer look

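Cux2 in EAE 4 was set apart from the other EAE libraries by Dixon's criterion, with 10.9 FPKM against 14.8–17.5 in the other 7, a gap of 0.598 of the range of the group. This was 1 of 18 groups of 8 libraries examined (9 genes in each condition), and chance gives such a value in about 1 of 20 groups. EAE 4 also held the highest Neurod6 (6.76 FPKM) and Fezf2 (7.65 FPKM) of the EAE libraries, and its cause was not tested.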

How the results depend on the processing

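Of 270 recomputed log2FC values of the 9 genes, 264 moved by less than the spread between libraries. A change of sign can fall within this spread, so this number does not show that a log2FC near 0 was stable. Fibcd1, the gene called with all libraries, kept its sign, whereas Tbr1 changed sign in 7 settings and Fezf2 and Neurod6 in 2 each. Within the 6 libraries most alike, where 23.2% of all mRNAs were called, Tbr1 was called with a positive log2FC of 0.20. Of the 9 genes, 1 was called with all libraries, beside 2.42% of all mRNAs. The number was 3 with DESeq2 (5.09% of all mRNAs), the edgeR exact test (4.17%) or a term for the library sets (4.29%). It was 4 when scaled to pan-neuronal genes (10.4%), 6 within the 6 libraries most alike (23.2%) and 0 within the other 10 (0.0895%). When 1 library was left out it was 1 to 3, with 3 without PBS 4 (3.19%). It was 2 without EAE 4 (7.34%), EAE 7 (1.92%) or PBS 6 (2.68%). Nothing is read from these counts. Replicate numbers do not pair the mice in the labels, and the deviations of same-numbered libraries correlated at −0.27 to 0.62. Only in pairs 4 and 8 did the EAE library correlate best with its own number. With the replicate block, 2 of the 9 genes were called, beside 517 mRNAs (2.89% of all) under the adjusted p alone. Under both thresholds 16 mRNAs were called, and of the list genes 14 under the adjusted p.

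Under both thresholds, 21 mRNAs were called with all libraries, 11 with a CPM filter, 52 with the exact test, 5 with limma on log2(FPKM + 1), 38 with the set term, 181 and 6 within the sets, and 12 (without EAE 8) to 49 (without EAE 4) when 1 library was left out. Under the adjusted p alone, the count was 433, against 910 with DESeq2, 745 with the exact test, 205 and 237 with limma on FPKM plus 0.1 and 1, 768 with the set term, 4152 and 16 within the sets, and 143 (without PBS 2) to 1312 (without EAE 4). The split of 118 higher and 315 lower mRNAs became 226 and 103 with library totals, and 132 and 73 or 157 and 80 with limma on FPKM. Of list genes, 13 were called, against 7 and 8 with limma on FPKM, 65 and 1 within the sets, and 5 (without PBS 2) to 26 (without EAE 4). The causes were not tested. Depth limited mainly Emx1, at 100 to 190 counts per library.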
